A study of Mus musculus with 20 samples.

Results

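The 42 genes described here are cell proliferation genes, 17 of them active in DNA replication and its control (S phase genes) and 25 in mitosis. They were taken by gene symbol from the table of 24421 genes counted in bone marrow-derived dendritic cells (BMDCs). Each of the 42 was listed in the table and passed the filter on low counts, which kept 12465 genes. The cells came from 5 wild-type C57BL/6 mice (mice A to E), whose marrow was kept in GM-CSF at 40 ng/mL over 8 days. For 4 hours the cells of each mouse received ovalbumin alone (Ova) or ovalbumin immune complexes (IC), which cross-link Fcγ receptors, together with the BET bromodomain inhibitor I-BET151 (iBET) at 3.3 μM or DMSO. This gave 4 groups of 5 libraries, 1 per mouse, namely DMSO Ova and DMSO IC and the same stimuli with iBET, and no untreated group. The DMSO groups are labelled 5% DMSO, the DMSO content of the iBET groups is not given, and the labels have iBET and stimulus given together whereas the methods have iBET given before the stimulus. The study compared these groups to ask how iBET changes the response of the cells to IC.

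Before a cell divides, the MCM helicase is loaded on replication origins by Cdc6 and Cdt1, nucleotides are supplied by ribonucleotide reductase and thymidylate enzymes, and PCNA holds the polymerases on DNA. In mitosis, cyclin B with Cdk1 drives entry, Aurora and Polo-like kinases build and correct the spindle, and the spindle checkpoint holds back Cdc20 and the anaphase promoting complex until chromosomes are attached. S phase genes are classically transcribed through E2F sites and mitotic genes through CCAAT boxes and the cell cycle genes homology region (CHR). BET proteins read acetylated histones at promoters and enhancers, and GM-CSF cultures of bone marrow hold dividing precursors beside differentiated dendritic cells.

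Levels are given as CPM (counts scaled to the same library total) after TMM scaling, and the total count of a library lay between 16447491 and 29245150. Of the members, Chek1 and Tk1 had the fewest reads, with 28 to 141 and 37 to 196 counts per library. The dendritic cell markers, Itgax and Cd74 among them, summed to between 4697 and 10075 CPM in a library, although 2 of the 10, Flt3 at 1.55 CPM and Cd209a at 0.233 CPM on average, were nearly absent. The macrophage and monocyte markers summed to between 1479 and 2272 CPM with DMSO and between 1098 and 1803 CPM with iBET, and all 9 were detected. Markers of granulocyte precursors were nearly absent apart from Kit (Elane and Ctsg had under 0.1 CPM in each library), and the 7 markers of lymphocytes and NK cells summed to under 1 CPM in each library. Libraries of mice A and B stood apart from those of mice C, D and E. The neutrophil markers summed to 702 to 914 CPM in A and B and to 431 to 576 CPM in the others. The precursor markers, mostly Kit, summed to 8.4 to 16.4 and to 25.8 to 38.4 CPM. Of the neutrophil markers Mmp8 made up most, at 598 CPM on average. The others listed averaged between 0.16 CPM (Camp) and 9.92 CPM (S100a9), and Ly6g was not listed. The sums therefore rest largely on Mmp8 and Kit. No batch is named in the labels or methods, although the methods state that batch effects were removed with the sva package. The part of these differences between mice in the results was not tested. In such bulk libraries fewer dividing cells and less RNA per cell cannot be told apart.

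In each of the 5 mice the members were lowest on average in the library that received both iBET and IC. As a summary, the log2 CPM of each gene was centred over the 20 libraries and averaged over the 17 S phase or the 25 mitotic genes. For the mitotic genes this mean was 0.26 ± 0.16 (SD, n = 5 mice) in DMSO Ova, 0.04 ± 0.21 in DMSO IC, 0.06 ± 0.14 in iBET Ova and -0.35 ± 0.17 in iBET IC. For the S phase genes it was 0.13 ± 0.18, 0.06 ± 0.15, 0.00 ± 0.11 and -0.19 ± 0.14 in the same order. The SD between mice was near the size of most steps between groups, but within a mouse iBET went with a lower mean each time. Within a mouse, the mitotic mean with iBET was below that with DMSO by 0.11 to 0.29 in the Ova cultures, and by 0.31 to 0.47 in the IC cultures, in 5 of 5 mice. The S phase mean was below it by 0.01 to 0.22 with Ova and by 0.20 to 0.30 with IC. These means are descriptions and carry no test.

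**Figure D1:**
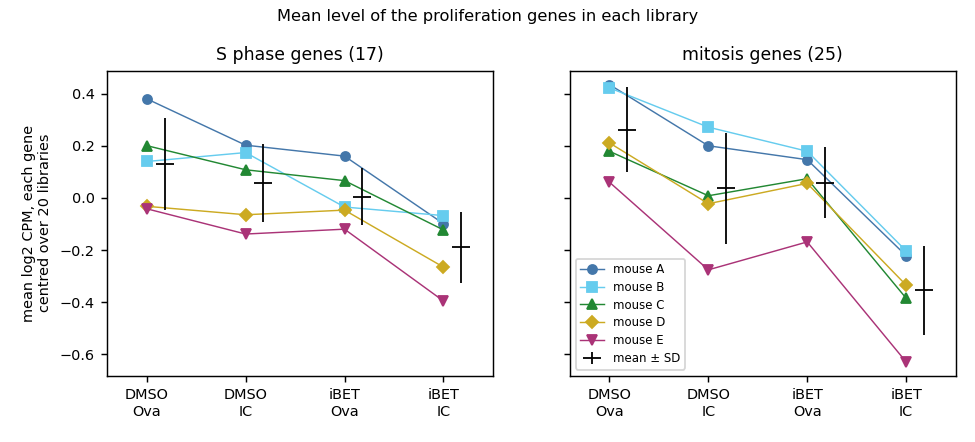
Mean centred log2 CPM of the 17 S phase genes (left) and the 25 mitotic genes (right) in each of the 20 libraries, by group; lines join the libraries of 1 mouse and black bars give the mean ± SD over 5 mice. The iBET IC library is the lowest of each mouse in both panels, and mouse E has the lowest mitotic value in each group.

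The S phase genes did not move as 1 block with iBET. In the Ova cultures 7 of 17 fell and 3 rose, against 28.9% lower and 27.7% higher of all 12465 genes tested, and in the IC cultures 8 fell and 3 rose, against 29% and 27.1%. Their median log2 fold change was -0.16 in Ova and -0.17 in IC, where that of all genes tested was -0.0029 and -0.0054. A call is an adjusted p under 0.05 in the quasi-likelihood test of edgeR, with Benjamini-Hochberg adjustment over all genes tested, and adjusted p values below are from this test unless another is named. With the mouse as a block in the same test, 8 fell and 5 rose in Ova and 9 fell and 3 rose in IC, against 35.2% and 33.5% of all genes in Ova and 35.4% and 32.6% in IC. The same 7 S phase genes, Mcm3, Mcm5, Mcm6, Cdt1, Rrm1, Tk1 and Uhrf1, fell under both stimuli, and Mcm7, Rrm2 and Pcna rose under both.

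Among the replication licensing genes, the subunits of the hexameric MCM helicase moved in opposite directions with iBET. Mcm3 fell from 60.2 ± 7.99 CPM to 43.9 ± 4.31 CPM (SD, n = 5) in Ova, with a log2 fold change of -0.46 (SE 0.10, adjusted p = 0.000659), and had one of -0.52 (SE 0.10, adjusted p = 0.000194) in IC, lower in 5 of 5 mice each time. Mcm5 fell too, with -0.42 in Ova and -0.53 in IC (adjusted p = 0.00402 and 0.000633), and so did Mcm6, with -0.25 and -0.34 (adjusted p = 0.0103 and 0.00128). The Ova call for Mcm6 was lost without mouse E. Fits with a mouse left out, here and below, had no mouse block. Mcm2 and Mcm4 did not pass, with log2 fold changes of -0.06 and -0.12 in Ova and -0.17 and -0.11 in IC; with the mouse as a block Mcm2 passed in IC (adjusted p = 0.00399). Mcm7, the remaining subunit, was at 46.7, 45.8, 42.8, 38.7 and 37.3 CPM in DMSO Ova of mice A to E and at 59.5, 49.0, 51.1, 50.4 and 47.6 CPM in iBET Ova. It was at 35.7, 34.5, 34.4, 34.9 and 31.8 CPM in DMSO IC and at 41.7, 42.6, 38.5, 38.7 and 36.5 CPM in iBET IC. Under either stimulus each iBET library lay above each DMSO library, and the log2 fold change was 0.29 (SE 0.07, adjusted p = 0.00225) in Ova and 0.21 (SE 0.07, adjusted p = 0.0195) in IC. Exons of Mcm7 overlap those of Cops6 and Ap4m1 on the other strand, and the strand setting of the counting is not given. Of these neighbours Cops6 had a log2 fold change of -0.04 (adjusted p = 0.666) and Ap4m1 of -0.33 (adjusted p = 0.0152) in Ova, and in IC of 0.01 (adjusted p = 0.934) and -0.35 (adjusted p = 0.0131).

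Cdt1, a loader of the helicase, fell, with log2 fold changes of -0.47 (SE 0.10, adjusted p = 0.000726) in Ova and -0.42 (SE 0.10, adjusted p = 0.0018) in IC. Cdc6, its partner in loading, had positive log2 fold changes that did not pass, 0.34 in Ova (adjusted p = 0.0914, and 0.00184 with the mouse as a block) and 0.21 in IC (adjusted p = 0.313). Gins2, a subunit of the GINS complex that joins the active helicase, did not pass either (-0.16 and -0.16).

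The 2 subunits of ribonucleotide reductase, which makes deoxynucleotides, also parted. Rrm1, the large subunit, was at 82.3, 64.6, 72.5, 66 and 63.5 CPM in DMSO Ova of mice A to E and at 60.0, 56.8, 50.9, 54.1 and 45.5 CPM in iBET Ova, with no overlap. Its log2 fold change was -0.38 (SE 0.10, adjusted p = 0.00278) in Ova and -0.47 (SE 0.10, adjusted p = 0.000524) in IC. Rrm2, the small subunit, went from 51.5, 45.9, 43.5, 41.0 and 38.0 CPM to 69.0, 72.8, 66.8, 62.0 and 54.5 CPM in the Ova cultures and from 46.7, 49.4, 46.0, 41.8 and 33.2 CPM to 52.3, 58.7, 61.1, 50.4 and 45.2 CPM in the IC cultures. Each mouse had more Rrm2 with iBET, whatever the stimulus, without overlap of the groups in Ova and with overlap in IC, and the log2 fold change was 0.56 (SE 0.11, adjusted p = 0.000217) in Ova and 0.30 (SE 0.11, adjusted p = 0.0244) in IC. The IC call for Rrm2 was lost without mouse C or without mouse D. Tk1, the thymidine salvage kinase, fell from 5.87 ± 0.956 CPM to 3.59 ± 0.463 CPM in Ova and from 5.15 ± 0.785 CPM to 2.61 ± 0.354 CPM in IC (SD, n = 5), with log2 fold changes of -0.71 (SE 0.14, adjusted p = 0.00022) and -0.97 (SE 0.14, adjusted p = 8.57e-06). Tyms, the thymidylate synthase, did not pass, at 0.22 in Ova (adjusted p = 0.0111 with the mouse as a block) and -0.02 in IC.

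Uhrf1, which brings the maintenance DNA methyltransferase to newly copied DNA, had the largest fall of the S phase genes. In mice A to E it was at 40.1, 30.5, 40.8, 31.4 and 31.8 CPM in DMSO Ova and at 21.5, 18.0, 24.4, 20.0 and 19.5 CPM in iBET Ova. In the IC cultures it was at 35.2, 35.2, 40.7, 34.5 and 32.6 CPM with DMSO and at 15.8, 18.1, 20.2, 16.3 and 14.3 CPM with iBET. The groups did not overlap under either stimulus, and the log2 fold change was -0.76 (SE 0.11, adjusted p = 5.46e-06) in Ova and -1.07 (SE 0.11, adjusted p = 6.17e-08) in IC. Pcna, the sliding clamp, rose, from 162, 134, 108, 116 and 124 CPM to 196, 181, 169, 166 and 162 CPM in Ova and from 177, 160.1, 158, 143 and 135 CPM to 205, 199, 191, 197 and 169 CPM in IC. Each mouse had more Pcna with iBET, although the groups overlapped, and the log2 fold change was 0.44 (SE 0.10, adjusted p = 0.000749) in Ova and 0.31 (SE 0.10, adjusted p = 0.00985) in IC. The IC call for Pcna was lost without mouse D. Chek1, the checkpoint kinase of stalled forks, was lower in 5 of 5 mice under either stimulus and passed in IC (-0.55, SE 0.22, adjusted p = 0.0395) but not in Ova (-0.41, adjusted p = 0.113, and 0.00742 with the mouse as a block). The IC call was lost without mouse A, B, C or E. E2f1, an activator of S phase transcription, did not pass, at 0.09 and 0.10.

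**Figure D2:**
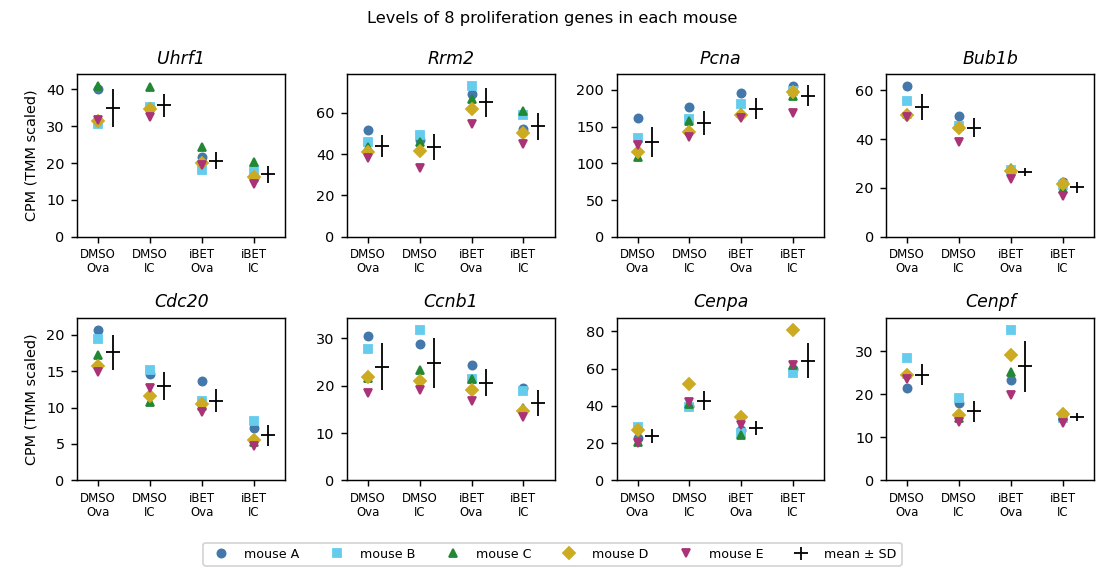
TMM-scaled CPM (from 0, linear) of 8 proliferation genes in each mouse by group, with black bars for the mean ± SD of 5 mice. Uhrf1, Bub1b and Cdc20 are lower and Rrm2 and Pcna higher with iBET, Cenpa is higher with IC, and Cenpf is lower with IC.

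Of the mitotic genes that passed with iBET, most fell. In Ova the share that fell was near that of all genes in the fit without the mouse as a block. With the block 13 of 25 fell there, against 35.2% of all genes. In Ova 8 of 25 fell and 0 rose past the threshold of edgeR, against 28.9% lower and 27.7% higher of all genes tested. In IC 14 fell and 1, Cenpa, rose, against 29% and 27.1%. Of the 9 macrophage and monocyte markers 4 were lower and 1 higher in Ova and 3 lower and 1 higher in IC (with the mouse as a block 5 lower and 1 higher each time). Of the 9 dendritic cell markers tested 2 were lower and 0 higher under either stimulus (with the mouse as a block 6 lower and 1 higher in Ova and 6 lower and 2 higher in IC). The part of these in the result was not tested. The median log2 fold change of the mitotic genes was -0.22 in Ova and -0.32 in IC. At an unadjusted p under 0.05, 11 of 25 passed in Ova and 17 of 25 in IC, against 7601 and 7546 of all 12465 genes tested, and DESeq2's Wald test gave 9 lower and 0 higher in Ova. With the mouse as a block, 13 fell and 4 rose in Ova and 20 fell and 1 rose in IC. The shares of all genes lower and higher were then 35.2% and 33.5% in Ova and 35.4% and 32.6% in IC. The 8 that fell in Ova were Ccna2, Ccnb2, Aurkb, Plk1, Bub1b, Cdc20, Kif11 and Nusap1, and these 8 fell in IC too (100% of the Ova list and 57.1% of the IC list). In Ova 5 fell without mouse A and 5 without mouse D. Fitted on mice A and B alone, 11 fell and 0 rose in Ova and 13 fell and 1 rose in IC. Fitted on the remaining 3 mice, 6 fell and 3 rose in Ova and 13 fell and 2 rose in IC. As these fits hold unlike numbers of libraries, their counts do not compare the size of the change. The shares of all genes called in the fits on part of the mice are not given. Their counts therefore do not set the members against all genes.

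Bub1b, a gene of the spindle checkpoint, had the largest fall of the 42 members under either stimulus. It encodes BubR1, the checkpoint protein that inhibits Cdc20 and lies on chromosome 2 from 118598211 to 118641591 (GRCm38). In mice A to E it was at 61.6, 55.8, 50.1, 49.7 and 48.9 CPM in DMSO Ova and at 26.6, 27.3, 28.2, 26.7 and 23.7 CPM in iBET Ova. In IC it was at 49.6, 45.3, 45.3, 44.5 and 38.9 CPM with DMSO and at 22.6, 21.1, 19.7, 21.5 and 16.7 CPM with iBET. Each iBET library lay well below each DMSO library, with log2 fold changes of -1.01 (SE 0.09, adjusted p = 6.3e-09) and -1.14 (SE 0.09, adjusted p = 1.24e-09). Cdc20, the activator of the anaphase promoting complex, was at 20.6, 19.3, 17.2, 15.7 and 14.9 CPM in DMSO Ova and at 13.7, 11.0, 10.2, 10.4 and 9.42 CPM in iBET Ova. With IC it went from 14.6, 15.2, 10.8, 11.6 and 12.6 CPM to 7.14, 8.14, 5.33, 5.58 and 4.67 CPM, again without overlap, and its log2 fold change was -0.68 (SE 0.14, adjusted p = 0.000417) in Ova and -1.06 (SE 0.15, adjusted p = 4.54e-06) in IC. Ube2c, the ubiquitin-conjugating enzyme of the same complex, passed in IC (-0.33, SE 0.13, adjusted p = 0.0344) and not in Ova (-0.25, adjusted p = 0.104, and 0.0209 with the block), and the IC call was lost without mouse A, B, C or D. Bub1, the kinase relative of Bub1b, did not pass in Ova (-0.07) or in IC (-0.31, adjusted p = 0.128, and 0.00154 with the block).

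Of the kinases, Aurkb and Plk1 fell and Aurka did not pass. Aurkb, the kinase of the chromosomal passenger complex, fell from 17.9 ± 2.10 CPM to 11.8 ± 1.67 CPM in Ova and from 12.7 ± 1.48 CPM to 7.72 ± 0.762 CPM in IC (SD, n = 5), with log2 fold changes of -0.60 (SE 0.11, adjusted p = 8.3e-05) and -0.72 (SE 0.11, adjusted p = 1.33e-05). Plk1, the Polo-like kinase, fell from 12.1 ± 1.83 CPM to 7.48 ± 1.03 CPM and from 9.84 ± 1.35 CPM to 5.13 ± 0.790 CPM, with log2 fold changes of -0.69 (SE 0.13, adjusted p = 0.000129) and -0.94 (SE 0.13, adjusted p = 5.15e-06). For both genes the iBET and DMSO libraries did not overlap under either stimulus. Aurka, the spindle pole kinase, did not pass, at -0.12 in Ova and -0.13 in IC. Birc5, which encodes survivin of the passenger complex, was at -0.04 in Ova and did not pass there (adjusted p = 0.706), while it fell in IC, with -0.39 (SE 0.09, adjusted p = 0.000901).

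Of the mitotic cyclins, Ccna2 (cyclin A2) fell, with log2 fold changes of -0.42 (SE 0.13, adjusted p = 0.00949) in Ova and -0.70 (SE 0.13, adjusted p = 0.00013) in IC. Ccnb2 (cyclin B2) fell as well, with -0.31 (SE 0.12, adjusted p = 0.0416) and -0.53 (SE 0.13, adjusted p = 0.00129). The Ova call for Ccnb2 was lost without mouse A, B, C or D. Ccnb1 (cyclin B1) fell in IC (-0.59, SE 0.16, adjusted p = 0.0033) and had a log2 fold change of -0.22 in Ova (adjusted p = 0.234, and 0.0049 with the block). Cdk1, the kinase partner of these cyclins, had 0.18 in Ova and -0.19 in IC, and neither passed without the block. With the block Cdk1 passed as higher in Ova (adjusted p = 0.0308) and as lower in IC (adjusted p = 0.0356).

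Among the 8 spindle and cytokinesis genes, Kif11 (the bipolar spindle kinesin Eg5) fell, with log2 fold changes of -0.28 (SE 0.11, adjusted p = 0.0372) in Ova and -0.58 (SE 0.11, adjusted p = 0.000152) in IC. Nusap1, a spindle-associated protein, fell too, with -0.49 (SE 0.16, adjusted p = 0.0143) and -0.72 (SE 0.17, adjusted p = 0.00103). Oip5, whose exons overlap those of Nusap1 on the other strand, was also lower in Ova, with a log2 fold change of -0.96 (adjusted p = 0.00014). Tpx2, the activator of Aurora A at the spindle, passed in IC (-0.31, SE 0.12, adjusted p = 0.0324) and not in Ova (-0.09). The IC call for Tpx2 was lost without mouse A, C or D, the Ova call for Kif11 without mouse A, B, C or D, and the Ova call for Nusap1 without mouse A or D. Kif11 and Nusap1 were lower in Ova in 5 of 5 mice. Both passed there in edgeR with the mouse as a block (adjusted p = 0.000516 and 1.15e-05). The remaining 5, Kif20a, Kif23, Kif2c, Prc1 and Hmmr, lay between -0.24 and 0.23 in Ova and between -0.32 and 0.04 in IC and did not pass. With the block Kif20a passed as lower in Ova and in IC, Kif23, Kif2c and Hmmr as lower in IC, and Prc1, the midzone bundler of microtubules, as higher in Ova (0.23, adjusted p = 0.00128). Tk1, Ccna2, Cdc20, Kif20a, Prc1 and Gins2 also share exon positions with a tested gene on the other strand and are uncertain to that extent. Among these neighbours Afmid (at Tk1) had a log2 fold change in Ova of 0.48 (adjusted p = 0.00507), opposite to Tk1. Exosc9 at Ccna2 (-0.23, adjusted p = 0.00695), Cdc23 at Kif20a (-0.33, adjusted p = 0.00389), Gse1 at Gins2 (-0.40, adjusted p = 0.0472) and Rccd1 at Prc1 (0.61, adjusted p = 0.00927) had the sign of their member, as did Elovl1 at Cdc20 (-0.12, adjusted p = 0.308).

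Mki67, the proliferation antigen Ki-67 that coats mitotic chromosomes, and Top2a, the topoisomerase that untangles sister DNA, are the usual markers of dividing cells. Mki67 was at 181, 207, 197, 211 and 192 CPM in DMSO Ova of mice A to E and at 173, 199, 162, 167 and 132 CPM in iBET Ova, and at 215, 221, 185, 162 and 149.9 CPM in DMSO IC and 147, 139.6, 137, 128 and 123 CPM in iBET IC. It passed in IC (-0.47, SE 0.11, adjusted p = 0.00101), where the groups did not overlap, and missed the threshold in Ova (-0.25, SE 0.11, adjusted p = 0.0571). Top2a had -0.30 (SE 0.13, adjusted p = 0.0544) in Ova and -0.32 (SE 0.13, adjusted p = 0.0427) in IC, lower in 5 of 5 mice each time. The IC call for Top2a was lost without mouse A, B, C or D, whereas with the mouse as a block Mki67 and Top2a passed in Ova (adjusted p = 0.0057 and 7.24e-05).

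**Figure D3:**
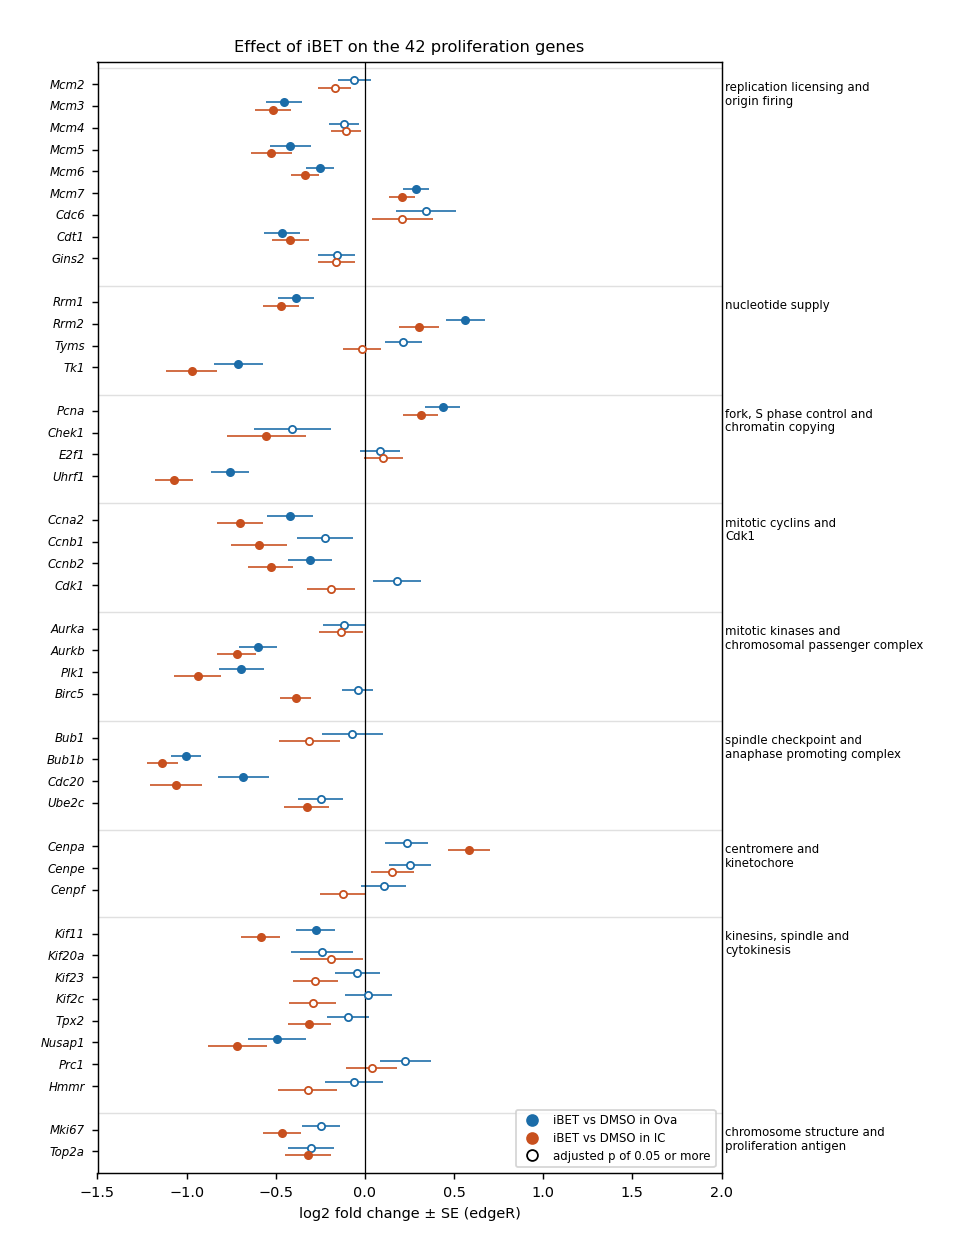
Log2 fold change ± SE with iBET of the 42 genes by role, in Ova (blue) and IC (orange) cultures; filled points have an adjusted p under 0.05 in edgeR. Bub1b (-1.01 and -1.14) lies farthest to the left and Rrm2 (0.56 in Ova) and Cenpa (0.58 in IC) farthest to the right.

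The promoters of the mitotic members more often held the letters of the CHR than those of the S phase members. Of the 42 genes 36 had an entry in the RefSeq promoter table (GRCm38.p6), which holds 250 bases before and 50 after the start of each gene. For the 3 genes with 2 entries the first by position was used. Both strands were searched for the CCAAT box (CCAAT), for the CHR (TTTGAA, or TTCGAA, which reads the same on both strands) and for an E2F site (TTTGGCGC, TTTCCCGC, TTTGCCGC or TTTCGCGC). The CHR letters were found in 17 of 21 mitotic promoters (81%) and in 1 of 15 S phase promoters (6.67%), against 19.2% of all 32851 promoters in the table. CCAAT was found in 85.7% of the mitotic and 60% of the S phase promoters, against 37.4% of all, and the E2F letters in 4.76% and 33.3%, against 2.26% of all. A CCAAT box and a CHR stood together in 16 of 21 mitotic promoters (76.2%) and in 7.52% of all promoters. The E2F letters were in Cdc6, Cdt1, Mcm3, Mcm5, Mcm6 and Cdk1. Genes with and without the CHR letters are found among those that fell and those that rose with iBET. Cdc20 and Cenpa each hold CCAAT and CHR, and Pcna, Rrm2 and Uhrf1 each hold CCAAT alone. Of the genes with the E2F letters, Cdt1, Mcm3, Mcm5 and Mcm6 fell under both stimuli. Cdc6 and Cdk1 passed only with the mouse as a block, both as higher in Ova and Cdk1 as lower in IC. Mcm7, Rrm2, Pcna and Cenpa, which rose without the block, hold CCAAT and no E2F letters.

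The promoters of the 2 S phase and the 2 mitotic genes with the smallest p for iBET in Ova, among those with an entry, are shown because they set a gene that rose (Rrm2) beside genes that fell (Uhrf1, Bub1b and Plk1). The sequences are from the table above, on the plus strand, 5′ to 3′, with the start after base 250, and capitals mark the CCAAT and CHR letters on either strand (ATTGG is CCAAT on the other strand). They lie at chr17:56303087-56303386 (Uhrf1), chr12:24708004-24708303 (Rrm2), chr2:118597961-118598260 (Bub1b) and chr7:122159185-122159484 (Plk1).
Uhrf1: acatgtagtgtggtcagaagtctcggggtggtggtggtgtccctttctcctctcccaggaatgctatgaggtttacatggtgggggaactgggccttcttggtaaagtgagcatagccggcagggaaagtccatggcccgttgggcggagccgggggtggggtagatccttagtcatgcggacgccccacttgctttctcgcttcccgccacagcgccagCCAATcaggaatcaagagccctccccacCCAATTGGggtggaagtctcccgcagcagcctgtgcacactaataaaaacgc
Rrm2: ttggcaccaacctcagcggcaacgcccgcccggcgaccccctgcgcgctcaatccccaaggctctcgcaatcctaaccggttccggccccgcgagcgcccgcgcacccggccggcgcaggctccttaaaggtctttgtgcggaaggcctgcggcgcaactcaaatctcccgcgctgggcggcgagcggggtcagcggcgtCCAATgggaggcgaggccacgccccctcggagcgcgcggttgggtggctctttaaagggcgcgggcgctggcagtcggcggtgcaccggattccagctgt
Bub1b: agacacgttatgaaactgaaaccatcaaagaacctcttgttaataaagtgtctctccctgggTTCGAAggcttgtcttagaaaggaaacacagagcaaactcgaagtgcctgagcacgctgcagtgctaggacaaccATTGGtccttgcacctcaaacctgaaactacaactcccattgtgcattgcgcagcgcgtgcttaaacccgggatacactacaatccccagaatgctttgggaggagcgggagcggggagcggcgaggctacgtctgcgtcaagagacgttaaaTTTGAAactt
Plk1: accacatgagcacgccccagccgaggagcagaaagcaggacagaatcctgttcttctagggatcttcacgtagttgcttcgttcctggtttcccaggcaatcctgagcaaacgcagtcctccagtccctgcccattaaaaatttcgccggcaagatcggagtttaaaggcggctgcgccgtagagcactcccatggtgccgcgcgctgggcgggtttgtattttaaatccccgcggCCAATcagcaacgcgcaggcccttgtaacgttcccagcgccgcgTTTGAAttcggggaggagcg
Plk1 holds a CCAAT that begins 14 bases before the start and a TTTGAA that begins 30 bases after it. Bub1b holds TTCGAA, the inverted CCAAT and TTTGAA. In Uhrf1 a CCAAT and an inverted CCAAT share bases, and Rrm2 holds 1 CCAAT and no CHR. None of the 4 holds the E2F letters searched. A match of letters is a description and no evidence of a bound factor.

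More of the mitotic than of the S phase genes were lower with IC. With DMSO, 8 of 25 mitotic genes were lower with IC and 1, Cenpa, higher, and 2 of 17 S phase genes were lower and 0 higher, where 10.7% of all genes tested were lower and 9.59% higher. With iBET 13 mitotic genes were lower and 1, again Cenpa, higher, and 3 S phase genes were lower and 0 higher, against 6.63% and 5.19% of all genes. Other cell type markers moved with IC too. The summed dendritic cell markers were higher with IC in 5 of 5 mice, at 5481 to 9224 CPM against 4697 to 7758 CPM with DMSO and at 5857 to 10075 CPM against 4869 to 7947 CPM with iBET. Of the 9 tested, 0 passed in either setting by edgeR (0 at an unadjusted p under 0.05), and with the mouse as a block 6 were higher and 0 lower with DMSO and 6 higher and 1 lower with iBET. Of the 9 macrophage and monocyte markers 0 passed without the block, and with it 3 were higher and 1 lower with DMSO and 6 higher and 0 lower with iBET. The part of these markers in the result was not tested. No S phase gene was higher in either setting by edgeR, while 4 with DMSO and 9 with iBET had an unadjusted p under 0.05 in either direction (of all 12465 genes tested, 4123 and 3312 did), and DESeq2's Wald test called 1 higher with DMSO and 0 with iBET. The median log2 fold change of the mitotic genes was -0.26 with DMSO and -0.49 with iBET, that of the S phase genes -0.07 and -0.24, and that of all genes tested -0.024 and -0.014. With the mouse as a block 16 mitotic genes were lower and 1 higher with DMSO and 22 lower and 1 higher with iBET, and 5 and 10 S phase genes were lower and 2 and 0 higher. The shares of all genes lower and higher were then 19.8% and 18.3% with DMSO and 14.7% and 14.2% with iBET.

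These counts moved when single mice were left out. Cenpa, Cenpe, Cenpf and Aurkb kept their calls in both settings whichever mouse was left out. Of the 9 mitotic calls with DMSO, 4 were left without mouse A, 5 without mouse C and 4 without mouse D, and of the 14 with iBET 9 were left without mouse C. The 2 S phase calls with DMSO became 0 without mouse C and 1 without mouse B, D or E, and the 3 with iBET became 1 without mouse A, B, C or D. Fitted on mice A and B alone, 2 mitotic genes were lower with DMSO and 6 with iBET, and 8 and 15 on the remaining 3 mice. These 2 fits hold unlike numbers of libraries, so their counts do not compare the size of the change. With iBET the mitotic mean changed with IC by -0.37 and -0.38 in mice A and B and by -0.46, -0.39 and -0.46 in mice C, D and E. With DMSO it changed by -0.23 and -0.15 and by -0.17, -0.23 and -0.34. Scaling by library size alone lowered the median of all genes by 0.11 in both contrasts. With this scaling 14 mitotic genes were called lower with DMSO and 21 with iBET, and 10 S phase genes lower with iBET. The shares of all genes called with this scaling, and in the fits on part of the mice, are not given. These counts are therefore no comparison of the members with all genes.

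Cenpa, the histone H3 variant of centromeres, was the member that moved most with IC and the only one that rose in both settings, with or without the block. In mice A to E it was at 22.8, 28.9, 20.8, 26.9 and 19.9 CPM in DMSO Ova and at 40.1, 39.5, 40.8, 52.0 and 42.2 CPM in DMSO IC. With iBET it was at 27.0, 25.3, 24.4, 33.9 and 29.6 CPM in Ova and at 59.7, 57.5, 62.1, 80.7 and 61.7 CPM in IC. Each IC library lay above each Ova library, with mouse D the highest in both IC groups, and the log2 fold change was 0.85 (SE 0.12, adjusted p = 7.64e-05) with DMSO and 1.20 (SE 0.12, adjusted p = 1.85e-06) with iBET. With iBET Cenpa was higher than with DMSO in the IC cultures (0.58, SE 0.12, adjusted p = 0.000306, higher in 5 of 5 mice) and had 0.24 in the Ova cultures (adjusted p = 0.103, and 0.0143 with the block). No other annotated gene overlaps the exons of Cenpa, which lies on chromosome 5 from 30666777 to 30674830.

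Cenpf and Cenpe, the other members grouped here with the kinetochore, the structure that ties centromeres to the spindle, fell with IC. Cenpf, a large protein of the outer kinetochore, was at 21.5, 28.5, 24.7, 24.5 and 23.6 CPM in DMSO Ova and at 17.9, 19.2, 14.5, 15.3 and 13.4 CPM in DMSO IC. With iBET it was at 23.2, 34.9, 25.3, 29.1 and 19.7 CPM in Ova and 15.5, 14.5, 14.9, 15.5 and 13.3 CPM in IC, and the groups did not overlap in either setting. Its log2 fold change with IC was -0.61 (SE 0.13, adjusted p = 0.0022) with DMSO and -0.84 (SE 0.13, adjusted p = 0.000249) with iBET. Cenpe, the kinetochore kinesin, fell from 32.4 ± 0.958 CPM to 22.2 ± 4.16 CPM with DMSO and from 38.6 ± 6.97 CPM to 24.7 ± 1.82 CPM with iBET (SD, n = 5), with log2 fold changes of -0.55 (SE 0.12, adjusted p = 0.00297) and -0.64 (SE 0.12, adjusted p = 0.00136). With iBET itself Cenpe and Cenpf did not pass under either stimulus, at 0.25 and 0.11 in Ova and 0.15 and -0.12 in IC, although Cenpe passed as higher in Ova with the block (adjusted p = 0.0211).

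Beside Cenpe and Cenpf, 5 further mitotic genes fell with IC in both settings. Their log2 fold changes with DMSO and with iBET were -0.49 (SE 0.11, adjusted p = 0.00293) and -0.61 (SE 0.11, adjusted p = 0.00115) for Aurkb, and -0.29 (SE 0.09, adjusted p = 0.0221) and -0.64 (SE 0.09, adjusted p = 8.65e-05) for Birc5. For Cdc20 they were -0.44 (SE 0.14, adjusted p = 0.0337) and -0.82 (SE 0.15, adjusted p = 0.00128), and for Bub1b -0.25 (SE 0.08, adjusted p = 0.04) and -0.38 (SE 0.09, adjusted p = 0.00671). For Kif23, a kinesin of the central spindle, they were -0.37 (SE 0.13, adjusted p = 0.0447) and -0.60 (SE 0.13, adjusted p = 0.00437). Kif20a, another cytokinesis kinesin, fell with DMSO (-0.50, SE 0.17, adjusted p = 0.0487) and missed the threshold with iBET (-0.44, adjusted p = 0.105, and 4.8e-05 with the block). Each of the DMSO calls of Birc5, Bub1b, Cdc20, Kif20a and Kif23 was lost on leaving out any of 3 or 4 of the mice. With iBET the list was joined by Ccna2 (-0.50), Plk1 (-0.54), Kif11 (-0.61), Kif2c, a microtubule depolymerase (-0.57), Nusap1 (-0.63) and Prc1 (-0.58), which passed with DMSO only with the block. Without mouse C the iBET calls of Bub1b, Ccna2, Kif2c, Nusap1 and Prc1 were lost, without mouse D those of Ccna2, Plk1, Nusap1 and Prc1, and without mouse A that of Plk1. With the block Hmmr and Top2a were lower in both settings, and Ccnb1, Ccnb2, Cdk1, Bub1, Tpx2 and Mki67 with iBET.

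Of the S phase genes Mcm7 fell in both settings, with log2 fold changes of -0.30 (SE 0.07, adjusted p = 0.00664) with DMSO and -0.38 (SE 0.07, adjusted p = 0.00199) with iBET, lower in 5 of 5 mice, and its DMSO call was lost without mouse C. Ap4m1, which overlaps it, was lower with IC too, with -0.36 (adjusted p = 0.028) and -0.37 (adjusted p = 0.0368). Mcm4 fell with DMSO (-0.25, SE 0.08, adjusted p = 0.037), and Mcm6 (-0.27, SE 0.08, adjusted p = 0.0292) and Tk1 (-0.45, SE 0.14, adjusted p = 0.0464) with iBET. The calls of Mcm4, Mcm6 and Tk1 were lost whichever mouse was left out. With the block alone Pcna and Mcm3 were higher with DMSO (adjusted p = 0.00198 and 0.0474), Cdc6, Chek1 and Mcm6 were lower with DMSO, and Mcm4, Cdc6, Rrm1, Rrm2, Tyms, Chek1 and Uhrf1 lower with iBET (adjusted p from 0.00103 for Rrm2 to 0.0227 for Rrm1).

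**Figure D4:**
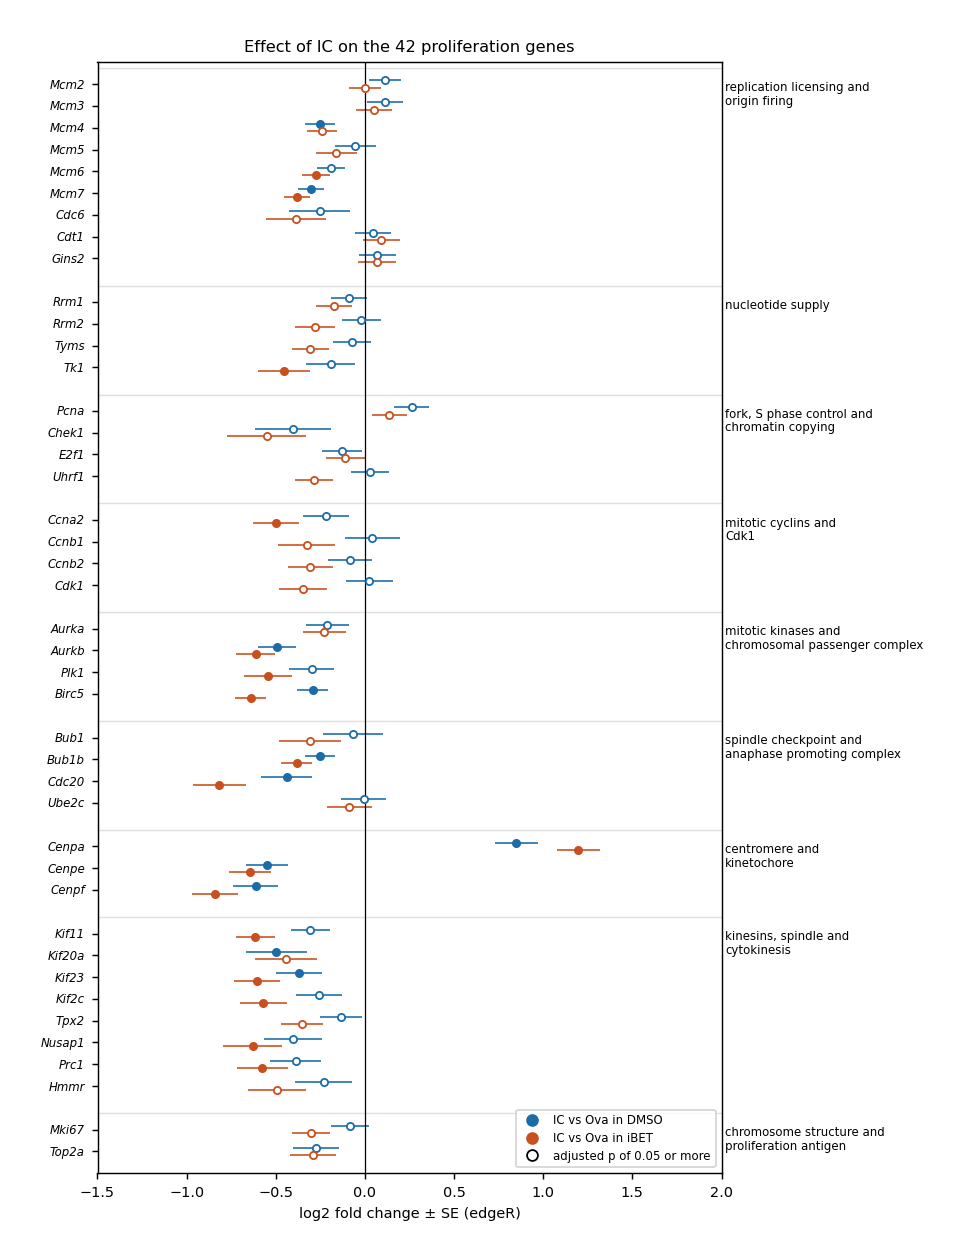
Log2 fold change ± SE with IC against Ova of the 42 genes by role, with DMSO (blue) and with iBET (orange); filled points have an adjusted p under 0.05 in edgeR. Cenpa (0.85 and 1.20) stands alone on the right, Cenpf lies farthest to the left in both settings (-0.61 and -0.84), and Cdc20 comes next to it with iBET (-0.82).

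The difference between the effect of iBET in IC and its effect in Ova was tested as an interaction. By edgeR 0 of the 42 members passed, where 0.0401% of all genes tested did, and at an unadjusted p under 0.05 there were 2 members, Birc5 and Uhrf1, and 543 of all 12465 genes. Their interaction log2 values were -0.35 (SE 0.12, adjusted p = 0.934) and -0.32 (SE 0.15, adjusted p = 1), and the next smallest p was that of Cenpa (0.35, SE 0.17). The values were below 0 for 37 of 42 members and for 6173 of all 12465 genes tested, with medians of -0.17 and 0.0020. The members were read in the same libraries and are not independent of each other. With the mouse as a block 1 member passed, Ccnb1, where 0.818% of all genes did. Its log2 fold change with iBET was more negative in IC than in Ova by 0.38 (adjusted p = 0.046) in 5 of 5 mice, and DESeq2's Wald test with the block gave an adjusted p of 0.0283 and without it of 1. In mice A to E Ccnb1 was at 30.5, 27.9, 21.7, 21.8 and 18.5 CPM in DMSO Ova and 28.7, 31.8, 23.3, 21 and 19.2 CPM in DMSO IC. It was at 24.4, 21.4, 21.4, 19.1 and 16.9 CPM in iBET Ova and 19.6, 19.0, 15.2, 14.7 and 13.4 CPM in iBET IC. The libraries of mice A and B were the highest in each group, though in iBET Ova mouse C was level with mouse B.

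The level of most members differed between mice. In a test of the differences between the 5 mice, with the group in the fit, 39 of 42 members passed (15 of 17 S phase and 24 of 25 mitotic genes), against 49.2% of all genes tested. The 4 libraries of a mouse come from the same animal, so the test concerns these 5 cultures and not mice in general. Averaged over its 4 libraries, mouse E was the lowest in 36 of the 42 genes, where it was the lowest in 17.1% of all genes tested. Mouse A or B was the highest in 36 of 42, against 49.6% of all genes. The ratio of the highest to the lowest mouse had a median of 1.32 over the members and of 1.25 over all genes tested, and was largest for Chek1 (1.67) and Bub1 (1.64). Kif20a (adjusted p = 1.58e-06), Ccnb1 (adjusted p = 3.17e-06) and Prc1 (adjusted p = 4.02e-06) had the smallest p. Gins2, E2f1 and Birc5 did not pass. Cenpa had its highest mean in mouse D and its lowest in mouse C. Without mouse E 15 mitotic genes passed, in a fit for which the share of all genes is not given. The summed neutrophil markers, mostly Mmp8, were highest and the summed precursor markers, mostly Kit, lowest in mice A and B as given above. The part of these markers in the differences was not tested.

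**Figure D5:**
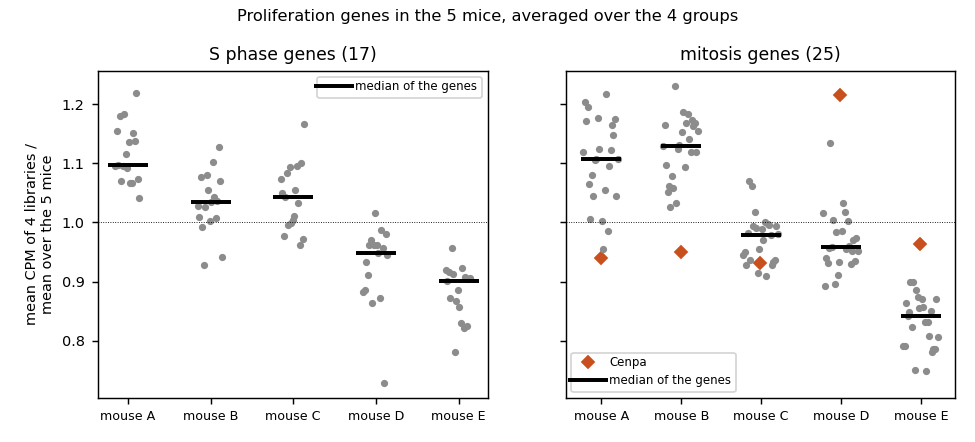
Mean CPM of each gene over the 4 libraries of a mouse, divided by its mean over the 5 mice, for the 17 S phase (left) and 25 mitotic genes (right); bars give the median over the genes and the dotted line marks 1. The median of the mitotic genes is 1.11 in mouse A, 1.13 in B, 0.979 in C, 0.958 in D and 0.841 in E, and Cenpa (diamonds) peaks in mouse D.

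Further genes of replication and mitosis, which are no members, were set beside them. Their counts with iBET stand against the shares of all genes given above. Of 60 other mitotic genes 25 were lower and 6 higher with iBET in Ova and 31 lower and 5 higher in IC, with a median log2 fold change of -0.21 and -0.34. Among those that moved the same way in 5 of 5 mice at a mean of at least 100 counts, the largest falls in Ova were those of Nuf2, a subunit of the Ndc80 complex (-0.93, SE 0.17, adjusted p = 9.97e-05), Plk4, the kinase of centriole copying (-0.87, SE 0.10, adjusted p = 2.06e-07), and Cdc25b, the phosphatase that activates Cdk1 (-0.80, SE 0.16, adjusted p = 0.000216). The largest rises were those of Kpna2, an importin (0.56), Ckap2 (0.44) and Pttg1, the securin that guards separase (0.41). With IC 14 of the 60 were lower and 0 higher by edgeR with DMSO (27 at an unadjusted p under 0.05 in either direction, and with the block 34 lower and 2 higher), and 27 lower and 0 higher with iBET (41, and with the block 43 lower and 0 higher). Of 50 other replication genes 8 were lower and 15 higher with iBET in Ova and 12 lower and 14 higher in IC, with a median of 0.11 and 0.04, and with the block 13 lower and 23 higher and 15 lower and 16 higher. With IC 12 of the 50 were lower and 3 higher with DMSO (17 and 4 with the block), and 5 lower and 1 higher with iBET (17 and 1 with the block). Of all genes tested 10.7% were lower and 9.59% higher with IC in DMSO, and 6.63% and 5.19% in iBET. With the block these shares were 19.8% and 18.3% in DMSO and 14.7% and 14.2% in iBET. Msh6, a mismatch repair protein (1.00, SE 0.06, adjusted p = 6.2e-11), and Slbp, the histone mRNA binding protein (0.99, SE 0.09, adjusted p = 2.31e-08), were among those that rose most in Ova by the same rule. Gins3, a subunit of GINS (-0.81, SE 0.17, adjusted p = 0.000346), and Pold1, the catalytic subunit of DNA polymerase delta (-0.80, SE 0.09, adjusted p = 3.53e-07), were among those that fell most.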

How the data were processed

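RNA-seq libraries of BMDCs were made with a stranded total RNA kit (SMARTer pico input, Takara) and sequenced on an Illumina instrument. The authors used Trim Galore for trimming, HISAT2 for alignment to mm10 and featureCounts to assign reads to genes. They also used DESeq2 for differential expression and sva to remove batch effects, which the methods do not name. They deposited raw counts per gene and library, and a second table of signal values in which the deposited counts of a library are divided by its size factor. The annotation, strand setting and treatment of multi-mapping reads are not given in the sources used here. The labels state that cells were sorted into lysis buffer, with no gate, and the methods that they were lysed in culture.

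The deposited counts were filtered with filterByExpr, TMM-scaled and compared by quasi-likelihood in edgeR 4.0.16 (R 4.3.3), in 1 fit of the 20 libraries with the group as the only factor. The median library held 21764663 counts, and values after ± in the text are SDs between mice. The SE of a log2 fold change was taken as its absolute value divided by the square root of the F statistic of its edgeR test. Libraries of the same group differed by more than counting error (40 pairs, lowest chi-square over its degrees of freedom 12.5). The labels name the mouse of each library, and libraries of 1 mouse deviated together from their group means (mean correlation 0.524 over 30 pairs, lowest 0.307). Fits with the mouse as a replicate block are therefore given where they change a call.

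Alternatives were the replicate block, DESeq2 1.42.0 (Wald test) in both designs, other scalings, 3 surrogate variables from sva 3.50.0, no filter, the 10 libraries compared, the deposited signal values as log2(value + 1) in limma 3.58.1, a log2 fold change of at least 1, mice A and B or C, D and E alone, and each mouse left out. The fits on part of the mice had the group as the only factor, without the block. The tests were tested on simulated data. The members, gene lists and tests were chosen with earlier results of these data known. Named genes were all members for iBET, the members past the threshold without or with the block (otherwise the 3 smallest p) for IC and the interaction, and from each further list the 3 largest rises and falls with iBET in Ova past the threshold, if 5 of 5 mice moved the same way and the mean count was 100 or more. Of the genes so named, 2 are not reported here. Gene positions are from GENCODE M21 (GRCm38).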

Additional observations from a re-analysis of the deposited data

Results flagged for a closer look

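Cenpa in mouse D was far above the other mice in both IC groups, by Dixon's test for 5 values. In DMSO IC it was at 52.0 CPM where the others lay between 39.5 and 42.2 CPM, and in iBET IC at 80.7 CPM where the others lay between 57.5 and 62.1 CPM. These were 2 of 168 groups of 5 values checked, and chance alone puts about 1 in 20 groups past the limit.

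The effect of iBET on Ccnb1 differed between IC and Ova in the fit with the mouse as a block, by -0.38 on the log2 scale (edgeR adjusted p = 0.046), and not in the fit without it (-0.37, edgeR adjusted p = 1).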

How the results depend on the processing

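The lowest and highest number of members called when 1 mouse was left out was 9 to 11 (S phase) and 5 to 11 (mitosis) for iBET in Ova, 9 to 10 and 12 to 17 for iBET in IC, 0 to 2 and 4 to 9 for IC with DMSO, 1 to 2 and 9 to 16 for IC with iBET, 0 to 0 for the interaction, and 11 to 15 and 15 to 23 for the differences between mice. With the mouse as a replicate block, in edgeR and in DESeq2, 17 mitotic genes passed for iBET in Ova, 7 S phase and 17 mitotic genes for IC with DMSO, 10 and 23 for IC with iBET, and 1 mitotic gene for the interaction. With surrogate variables the counts were 17 (mitosis, iBET in Ova), 4 and 14 (IC with DMSO) and 5 and 22 (IC with iBET). Scaled by library size alone they were 15 (mitosis, IC with DMSO) and 10 and 22 (IC with iBET). Without the filter 1 S phase gene passed for IC with either DMSO or iBET, and in the 10 libraries compared 1 S phase and 5 mitotic genes passed for IC with DMSO. In mice A and B only, 0 S phase and 3 mitotic genes passed for IC with DMSO and 0 and 7 with iBET. With a log2 fold change of at least 1 required, 0 and 1 passed for iBET in Ova, 1 and 2 for iBET in IC, 0 and 0 for IC with DMSO and 0 and 1 for IC with iBET. The cause of these moves was not tested, apart from the higher bar and the fewer libraries. Other alternatives left the counts within 1.5 times. Apart from the fits with the block, the shares of all genes called in these alternatives are not given. Their counts therefore do not compare the members with all genes.

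Of 2271 repeats over 142 values of single members, 615 of those that left out 1 mouse and 1290 of the others kept direction and call, 16 and 191 came to pass, 74 and 65 no longer passed and 5 and 15 turned sign. The block ended no call. Values that turned sign had not passed. In mice C, D and E only these were, for iBET in Ova, Mcm2 (0.0034), Mcm4 (0.000318), Aurka (0.061), Birc5 (0.045) and Kif23 (0.0097), and in IC Tyms (0.045) and Cenpf (0.042). In mice A and B only they were E2f1 (-0.071), Cdk1 (-0.0094) and Kif2c (-0.086) in Ova and Prc1 (-0.044) in IC. With library size alone Kif2c in Ova (-0.030) and Prc1 in IC (-0.012) turned, and for Tyms in IC surrogate variables gave 0.049 and no filter 0.0028. With 1 mouse left out the range was -0.072 to 0.010 for Kif23, -0.031 to 0.114 for Kif2c and -0.136 to 0.0082 for Hmmr in Ova and -0.040 to 0.018 for Tyms in IC. Chek1 and Tk1 were the members with the fewest counts.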

Other observations

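The regulators that turn proliferation genes on and off were read from a list of 18 genes of the RB, E2F and DREAM families. With iBET 6 were lower and 5 higher in Ova and 7 lower and 3 higher in IC by edgeR, against the 28.9% and 27.7% of all genes tested in Ova and the 29% and 27.1% in IC, with a median log2 fold change of -0.17 and -0.16. E2f2, an activator of S phase genes, had the largest fall, with log2 fold changes of -2.07 (SE 0.13, adjusted p = 8.28e-11) in Ova and -2.11 (SE 0.13, adjusted p = 7.97e-11) in IC, from a mean of 37.7 CPM to one of 8.96 CPM in Ova. Rbl1, the pocket protein p107 (-0.62, SE 0.09, adjusted p = 6.89e-06 in Ova), and Lin9, a core subunit of the MuvB complex that binds the CHR (-0.52, SE 0.17, adjusted p = 0.0148), fell too. E2f5, a repressor E2F (0.89, SE 0.14, adjusted p = 2.09e-05), and the MuvB subunits Lin52 (0.46, SE 0.10, adjusted p = 0.000429) and Lin54 (0.28, SE 0.11, adjusted p = 0.0312) rose in Ova. Lin54 did not pass in IC (0.24, edgeR adjusted p = 0.0687, and 0.0045 with the mouse as a block). With IC 3 of the 18 were lower and 1 higher, both with DMSO and with iBET. Of all genes 10.7% were lower and 9.59% higher with DMSO, and 6.63% and 5.19% with iBET. In the fit with the block 3 were lower and 4 higher with DMSO, and 4 lower and 2 higher with iBET. The shares of all genes lower and higher were then 19.8% and 18.3% with DMSO and 14.7% and 14.2% with iBET.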
